A study of Mus musculus with 23 samples.

Results

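VQ-D5 is a transplanted mouse myeloma whose sorted cells were profiled by total RNA sequencing, and it is set here against sorted plasma cells of Control mice. The comparison holds the 4 libraries labelled VQ-D5 and the 3 labelled Control, 7 of the 23 libraries in the series. Libraries were taken by their group label, with no measured value used, and every gene of the deposited count column was included. VQ-D5 cells carried the Vκ*MYC transgene, a NrasLSL Q61R allele beside a wild-type Nras allele, and IgG1-Cre, a combination labelled VQ. Control mice are labelled IgG1-Cre alone, so Cre was shared by both sides. VQ-D5 contributed 2 lymph node and 2 bone marrow libraries, and Control contributed bone marrow libraries only, so the site and the genotype are partly mixed in the comparison. The labels call the sorted cells of every group, Control included, MM cells with the surface phenotype CD138+B220-. The same genotype was sampled in the lines VQ-D1, VQ-D2 and VQ-D4, with 4 libraries each, which are used below where VQ-D5 differs from them.

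Vκ*MYC places MYC under kappa light-chain regulatory elements, so that it is switched on in B cells that undergo somatic hypermutation. IgG1-Cre is expressed from the Ighg1 locus in B cells of the germinal centre, where it removes the stop cassette (LSL) in front of the mutant Nras. Each VQ line comes from cells of 1 donor, and by the recipient numbers in the names of the deposited tables the 4 VQ-D5 libraries come from 2 recipient mice. Replicates 3 (lymph node) and 1 (bone marrow) share a recipient, and so do replicates 4 and 2. An n of 4 therefore counts libraries of 1 tumour, not animals. The p-values of the main fit rest on the spread between libraries, pooled over the 23 libraries of the series. Mouse age, sex and strain were not given.

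Plasma cells are the antibody-secreting end stage of the B cell lineage: they silence B cell and antigen-presentation genes and expand the secretory pathway. Multiple myeloma is a cancer of such cells that grows in the bone marrow and can spread to other sites. MYC is a transcription factor that drives ribosome production and cell growth, and NRAS with the mutation Q61R is a RAS GTPase locked in its active state, which signals through RAF, MEK and ERK.

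Total counts per library were 4141275, 4363873, 8045768 and 8756143 in VQ-D5 and 3023575, 2685579 and 3790134 in Control, within a range of 2685579 to 10047314 over the series. The ribosomal precursor Rn45s took 16.6% to 20.3% of counts in VQ-D5 and 16.4% to 17.3% in Control. Levels below are in CPM, counts scaled to library size with edgeR's TMM factors, and values of the 4 VQ-D5 libraries are listed as replicates 1 to 4. Log2 fold changes are VQ-D5 over Control from edgeR's quasi-likelihood fit of all 23 libraries with terms for group and tissue, with their standard error (SE). A gene is called at a Benjamini-Hochberg adjusted p under 0.05. Of 12867 genes tested, 8206 (63.8%) were called, 4019 (31.2%) higher in VQ-D5 and 4187 (32.5%) lower, and the median log2 fold change of all genes was -0.04. Past 1 log2 unit there were 5329 genes (41.4%), 2536 higher (19.7%) and 2793 lower (21.7%). With the VQ-D5 bone marrow libraries alone 7799 genes (60.6%) were called, and with the lymph node libraries alone 8079 (62.8%). Any list of genes is to be read against these shares.

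Both sides were checked against markers of plasma cells and of other cell types. Sdc1, which encodes the sorted antigen CD138, was at 333, 376, 379 and 413 CPM in VQ-D5, against 928, 627 and 895 CPM in Control. Both groups thus carried the plasma cell marker, with the VQ-D5 libraries all below the Control libraries. RNA of other blood cells was higher in Control. The summed level of 16 neutrophil genes was 86.2, 142.5, 4.45 and 5.25 CPM in VQ-D5, against 3311, 9199 and 3767 CPM in Control. The granule genes Ngp, Ltf and S100a9 lead that sum in Control, and Ngp was at 0.131 and 0 CPM in VQ-D5 lymph node and at 859.5, 2066 and 849.9 CPM in Control. The erythroid sum (16 genes) was 2.62 to 14.1 CPM in VQ-D5 and 206.2 to 1214 CPM in Control, and Hbb-bt had 0 counts in VQ-D5. The sums were 20.4 to 43.2 against 498.1 to 1550.2 CPM for monocytes and macrophages (15 genes) and 31.2 to 35.3 against 125.1 to 181.8 CPM for T and NK cells (16 genes). For dendritic cells (11 genes) they were 232.4 to 282.2 against 355.4 to 449.3 CPM, a sum carried mostly by Tcf4 and Bst2, which plasma cells express too.

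All 16 tested neutrophil genes, all 14 erythroid genes, 10 of 11 monocyte and macrophage genes and 8 of 9 T and NK genes were lower in VQ-D5, against 32.5% of all genes. Of 6 dendritic cell genes, 3 were lower and 1 higher. For endothelial and stromal genes, 2 of 7 were lower, a share close to that of all genes. The 1 tested gene of megakaryocytes, mast cells and basophils was lower. Cd3d, Cd8a, Ncr1 and Pf4 had 0 counts in VQ-D5. In such bulk libraries, fewer cells of a type and less RNA per cell cannot be told apart. The part that these other cells play in the genes called lower was not tested.

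Among the Control libraries, replicates 1 and 2 stood apart. Replicate 1 held a summed level of 15457 CPM for 16 immediate early and heat shock genes, which respond within minutes to handling, against 5362 and 5966 CPM in the other Control libraries and 1114 to 2236 CPM in VQ-D5. It also held 1350 CPM of Xist, the RNA of the inactive X chromosome, against 3.41 and 3.94 CPM in the other Control libraries and 5.27, 87.2, 1.31 and 3.38 CPM in VQ-D5. The Y-linked genes Ddx3y, Eif2s3y and Kdm5d had 0 counts in all 4 VQ-D5 libraries, and Ddx3y was at 41.8, 113 and 122 CPM in Control (at least 763-fold lower in VQ-D5). The Y-linked genes moved with the groups, and Xist did not pass the test. Control replicate 1 held both Xist and Y-linked RNA, and no sex is labelled. Replicate 2 held the largest neutrophil and erythroid sums. Without Control replicate 1, 7862 genes were called, and without replicate 2, 7896.

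**Figure D1:**
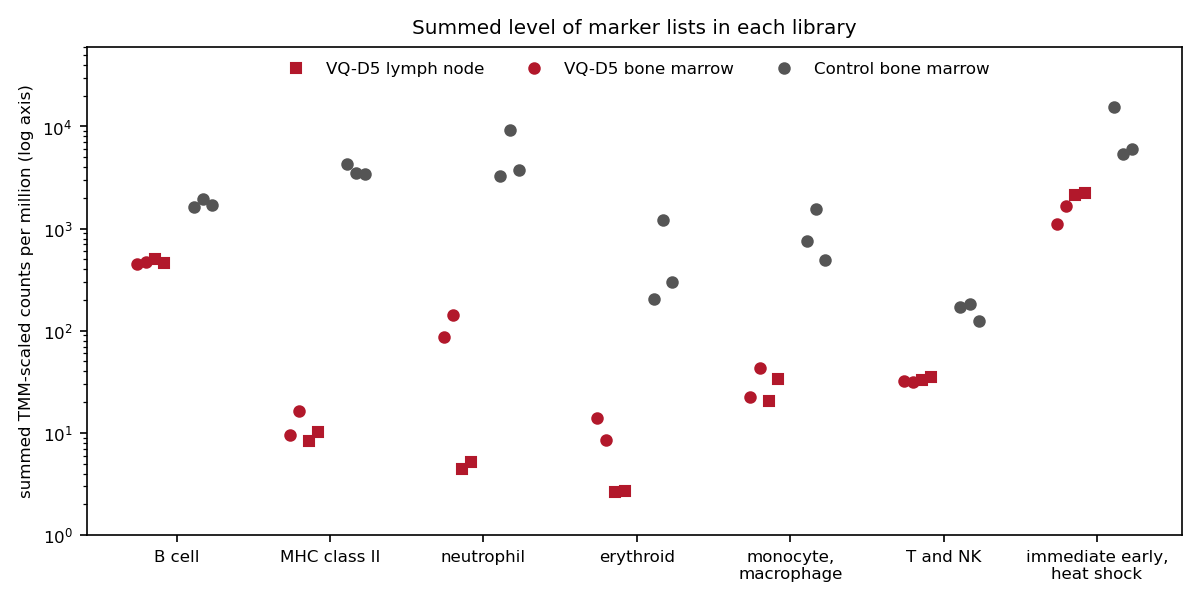
Summed TMM-scaled CPM (log axis) of marker lists in each library, with the 4 VQ-D5 libraries left of the 3 Control libraries in each panel. Neutrophil sums were 4.45 to 142.5 CPM in VQ-D5 and 3311 to 9199 CPM in Control, and the immediate early and heat shock sum of Control replicate 1 reached 15457 CPM.

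The genes that the genotype alters were examined first. Myc was at 1062, 1267, 1084 and 1238 CPM in VQ-D5, against 41.8, 58.0 and 29.4 CPM in Control (log2 fold change 4.77, SE 0.19, edgeR adjusted p 1.5e-14). The groups lay far apart. Counts on the symbol Myc do not separate the transgene from the mouse gene. Nras was at 116, 139.6, 114 and 129 CPM in VQ-D5, against 32.7, 31.4 and 32.8 CPM in Control (log2 fold change 1.91, SE 0.13, edgeR adjusted p 6.6e-11). Neither gene overlapped between the groups. Across the VQ lines, Myc averaged 1163 ± 105 CPM in VQ-D5, 592 ± 77.5 in VQ-D1, 3478 ± 63.7 in VQ-D2 and 1375 ± 204 in VQ-D4, against 43.1 ± 14.3 CPM in Control (SD, n = 4 per line and 3 Control). Nras averaged 124 ± 12.1 CPM in VQ-D5, 42.3 ± 4.59 in VQ-D1, 87.4 ± 9.17 in VQ-D2 and 51.1 ± 1.96 in VQ-D4, against 32.3 ± 0.819 CPM in Control. Nras was thus higher in VQ-D5 than in each other VQ line (log2 difference 0.50 against VQ-D2, edgeR adjusted p 0.0013), whereas Myc was lower in VQ-D5 than in VQ-D2 (log2 difference -1.55, edgeR adjusted p 3.2e-08).

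Downstream of RAS, feedback and ETS genes induced by ERK signalling were higher, while immediate early genes of the same list were lower. Of 19 tested ERK output and feedback genes, 9 were higher in VQ-D5 and 5 lower, with a median log2 fold change of 1.47. Over all genes, 31.2% were called higher and 32.5% lower, so the share of lower genes in the list was not above that of all genes. Spry4, a Sprouty protein that feeds back to inhibit RAS signalling, was at 161, 183, 179 and 247 CPM in VQ-D5 and 0, 1.36 and 0.525 CPM in Control (log2 fold change 8.32, SE 0.49, edgeR adjusted p 8.1e-11). It was almost unread in Control and well read in every VQ-D5 library. Spred1 and Spred2, which bring neurofibromin to RAS, rose by 3.89 and 2.39 log2 units. Dusp6, the phosphatase that inactivates ERK, was at 218, 126, 273 and 124 CPM in VQ-D5, against 18.8, 37.9 and 15.2 CPM in Control (log2 fold change 3.05, SE 0.42, edgeR adjusted p 8.5e-06). Its values did not overlap between the groups.

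The ETS factors of the PEA3 family, which ERK activates, all rose. Etv5 was at 183, 157, 176 and 159 CPM in VQ-D5, against 9.40, 8.53 and 6.57 CPM in Control (log2 fold change 4.49, SE 0.36, edgeR adjusted p 6.3e-09). Etv1 averaged 29.3 ± 4.17 CPM in VQ-D5 and 0.650 ± 0.619 CPM in Control (SD, n = 4 and 3), and Etv4 was at 30.7, 37.0, 30.7 and 45.6 CPM in VQ-D5 and 0.324, 0 and 0.525 CPM in Control. Etv4 rested on 3 Control counts, with a count ratio of 121 (95% counting interval 41.3 to 588). Phlda1, a pleckstrin-like protein, and Epha2, an ephrin receptor, rose by 3.41 and 3.20 log2 units. Spry1, Dusp4, Dusp5, Dusp2 and Fosl1 did not pass the test, though Dusp4 did without Control replicate 1 and Dusp2 without Control replicate 2.

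The 5 lower genes were Fos, Egr1, Egr2, Egr3 and Ier3, all immediate early genes. Fos was at 47.9, 39.2, 198 and 133 CPM in VQ-D5, against 3104, 852 and 1042 CPM in Control (log2 fold change -4.35, SE 1.46, edgeR adjusted p 0.017), and Egr1 at 66.6, 171, 152 and 284 against 981, 258 and 332 CPM. Control replicate 1 was the highest of all 7 libraries for both, and the Egr1 values overlapped. Without Control replicate 1 the list held 10 higher and 3 lower genes, and Fos lost its call. Leaving out VQ-D5 replicate 1 or 2 also left 3 lower genes and ended the Fos call, and the Egr1 call was lost without any 1 of Control replicate 1 or VQ-D5 replicates 1, 2 and 3. Either VQ-D5 site alone and counts summed per recipient also ended the Egr1 call. Of the 16 immediate early and heat shock genes, 12 were lower (median -2.94), and 7 without Control replicate 1 or without VQ-D5 replicate 2.

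**Figure D2:**
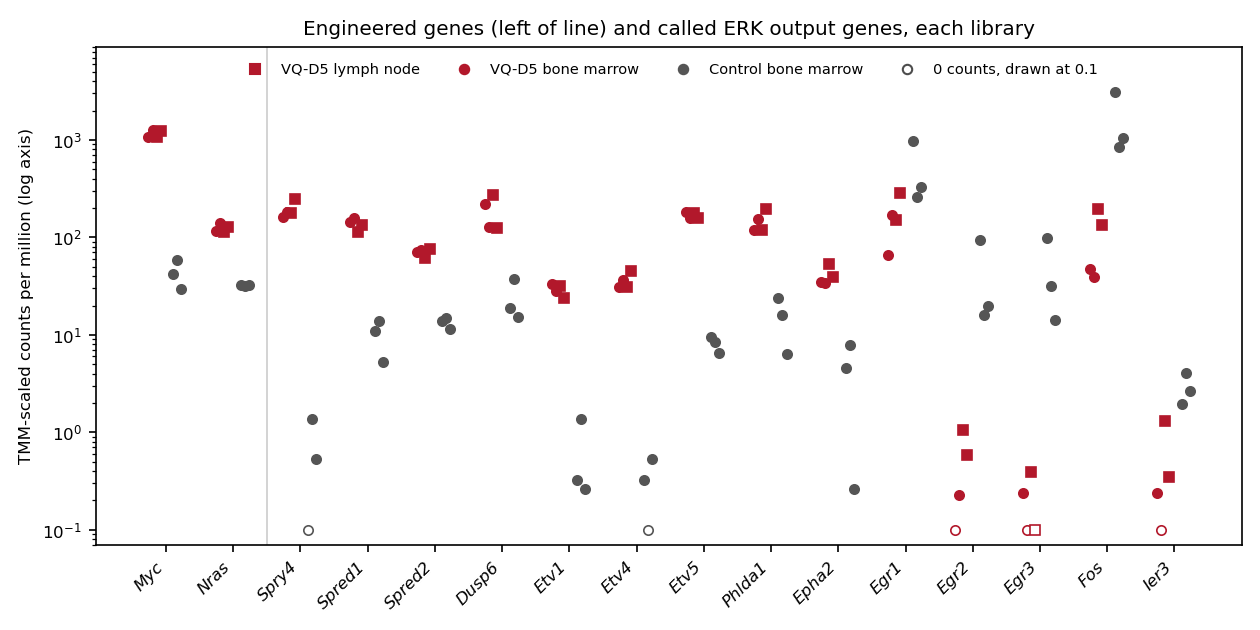
CPM (log axis) of Myc, Nras and 14 ERK output and feedback genes in each of 4 VQ-D5 and 3 Control libraries, with VQ-D5 on the left and zeros as open symbols at the bottom. Feedback and ETS genes such as Spry4 (161 to 247 against 0 to 1.36 CPM) lie above Control, and Egr2, Egr3 and Fos lie below it.

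The components of the pathway had a smaller median change, in the other direction. Of 24 tested RAS pathway genes, 3 were higher and 16 lower, with a median of -0.50. The higher genes included Nras and Hras (log2 fold change 2.01). Rasgrp3, an exchange factor that loads RAS with GTP in B cells, was at 0.240, 0.459, 1.96 and 0.466 CPM in VQ-D5 and 206, 159 and 172 CPM in Control (log2 fold change -8.13, SE 0.42, edgeR adjusted p 6.5e-12). Its relative Rasgrp1 and the GTPase Rras2 fell by 5.83 and 5.34 log2 units. Map2k1 (MEK1) and Mapk3 (ERK1) fell by 1.15 and 1.70, and the RAS inactivator Nf1 by 0.51. The Nf1 call was lost without Control replicate 1 and with the 7 libraries fitted alone with a tissue term. Of the MYC network, 3 of 11 tested genes were higher (Myc, Mxi1 and Mlxip) and 2 lower, Mlx and Mxd1, a MAX partner that opposes MYC (log2 fold change -2.28), with a median of -0.05.

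Genes that MYC is known to activate were higher almost without exception. The list holds genes of the nucleolus and of polyamine and nucleotide synthesis, and also the chaperonin gene Hspd1. Of 25 tested, 24 were called higher and none lower, with a median log2 fold change of 2.38, against 31.2% of all genes called higher. The E-box CACGTG is the DNA element bound by MYC with MAX. Below are the promoters of the 2 list members with the largest increase among those whose promoter window holds it, shown to place the motif (in capitals) beside its gene. Both are the 300-base windows of RefSeq (250 bases before to 50 after the annotated start, build GRCm38.p6). Hspd1 lies at chr1:55088194-55088493 on the minus strand, with the motif beginning 80 bases before the start, and Mybbp1a at chr11:72441077-72441376 on the plus strand, with the motif beginning 40 bases after it.
Hspd1: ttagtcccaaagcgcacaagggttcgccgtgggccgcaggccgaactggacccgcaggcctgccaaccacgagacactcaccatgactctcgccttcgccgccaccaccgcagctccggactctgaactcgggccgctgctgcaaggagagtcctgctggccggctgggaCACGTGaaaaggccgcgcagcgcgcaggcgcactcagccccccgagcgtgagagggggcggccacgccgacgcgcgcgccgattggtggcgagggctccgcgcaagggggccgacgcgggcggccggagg
Mybbp1a: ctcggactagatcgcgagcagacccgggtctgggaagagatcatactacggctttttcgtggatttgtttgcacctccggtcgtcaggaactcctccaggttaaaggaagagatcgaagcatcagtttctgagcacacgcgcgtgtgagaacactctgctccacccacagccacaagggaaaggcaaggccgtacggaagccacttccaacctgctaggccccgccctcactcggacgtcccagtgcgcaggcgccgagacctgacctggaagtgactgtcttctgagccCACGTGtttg

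CACGTG reads the same on both strands. It was found in 5 of the 20 list members with a window (25.0%), against 1219 of the 10178 tested genes with a window and 7.15% of all 32851 windows. Among tested genes it stood in 13.2% of those higher in VQ-D5, 11.3% of those lower and 11.5% of those not called. A match describes the letters of the window and not binding. Hspd1, the mitochondrial chaperonin HSP60, was at 227, 222, 271 and 261 CPM in VQ-D5, against 26.6, 36.8 and 27.8 CPM in Control (log2 fold change 2.91, SE 0.11, edgeR adjusted p 6.9e-15). Mybbp1a, a nucleolar protein of ribosomal RNA synthesis, was at 818, 843, 853 and 953 CPM in VQ-D5, against 135, 135 and 131 CPM in Control (log2 fold change 2.63, SE 0.09, edgeR adjusted p 1.3e-15). Hspd1 overlaps the neighbouring gene Hspe1 in the annotation, and reads of overlapping genes cannot be told apart in these counts.

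The nucleolar genes varied little among the VQ-D5 libraries. Ncl (nucleolin) was at 4592, 5042, 4692 and 5086 CPM in VQ-D5 and 793, 793 and 747 CPM in Control, and Npm1 (nucleophosmin) at 830.3, 889, 862 and 906 and 101, 104 and 103 CPM. Srm, the spermidine synthase, had the largest increase of the list (log2 fold change 3.08, SE 0.10). Its partner in polyamine synthesis Odc1 was the 1 member that did not pass, at 153, 152, 176 and 177 CPM in VQ-D5 and 293, 115 and 128 CPM in Control. Nop56 and Nop58, core proteins of small nucleolar particles, rose by 2.59 and 2.78 log2 units, and the smallest called increase was Cad of pyrimidine synthesis (1.19). Ribosome subunits followed: all 38 tested cytosolic ribosomal protein genes were higher, with a median of 1.63. Rplp0 was at 1269, 1277, 1238 and 1236 CPM in VQ-D5 and 317, 348 and 360.5 CPM in Control, and Rps24 had the smallest increase (0.44). Rps24 lost its call without Control replicate 2 or VQ-D5 replicate 1. Ribosomal protein genes have many near-identical processed copies, so single members are uncertain.

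Proliferation genes were higher throughout. All 20 mitosis genes and all 20 DNA replication genes were called higher, with medians of 2.49 and 1.68. Cdc20, the activator of the anaphase-promoting complex, was at 206, 206, 194 and 228 CPM in VQ-D5, against 8.11, 21.8 and 8.14 CPM in Control (log2 fold change 3.96, SE 0.28, edgeR adjusted p 4.3e-10). Ube2c, its ubiquitin-conjugating partner, rose by 3.29, and the mitotic kinase gene Cdk1 by 2.99. Mki67, the usual proliferation marker, was at 2961, 2434, 2642 and 2554 CPM in VQ-D5 and 778, 1336 and 748 CPM in Control, so Control libraries also held RNA of cycling cells. Control replicate 2 was the highest of the Control libraries for most of these genes. Among replication genes, Gins2 of the replicative helicase rose by 3.15 and Rfc4 of the clamp loader by 3.09.

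Entry into the cycle was less uniform: of 17 cyclin D, cyclin E and inhibitor genes, 6 were higher and 9 lower (median -0.47). Ccnd1 was at 48.2, 37.0, 44.1 and 30.3 CPM in VQ-D5, against 10.1, 14.7 and 6.83 CPM in Control (log2 fold change 2.24, SE 0.32, edgeR adjusted p 3.2e-06). Ccnd2 was at 24.4, 122, 45.7 and 174 CPM in VQ-D5, against 1060.2, 187 and 139 CPM in Control (log2 fold change -2.37, SE 0.75, edgeR adjusted p 0.012). Ccnd2 overlapped between the groups, was highest in Control replicate 1 and lost its call without that library. The call was also lost with the 7 libraries fitted alone, with the lymph node libraries alone and with counts summed per recipient. Ccnd3 fell by 1.48 log2 units. Ccne1 was at 152, 213, 201 and 259 CPM in VQ-D5 and 18.5, 36.8 and 32.6 CPM in Control (log2 fold change 2.71, SE 0.30, edgeR adjusted p 3.7e-07), and Cdk4 rose by 1.65 while Cdk6 fell by 1.98. Cdk6 lost its call without VQ-D5 replicate 1 or 2. The CDK inhibitor genes split. Cdkn2a and Cdkn2b had 0 counts in every VQ-D5 library, against 2.92, 1.71 and 2.36 and 4.86, 3.75 and 5.25 CPM in Control (at least 19.2-fold and 38.1-fold lower). Cdkn2c fell by 4.08 and Cdkn1b by 1.12, whereas Cdkn1a, the p53 target p21, rose by 2.33.

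Protein turnover and energy metabolism were higher as well. All 31 tested proteasome genes were called higher, by a smaller median of 1.07. Psmb4 was at 259, 269, 280.5 and 285 CPM in VQ-D5, against 52.2, 48.8 and 56.7 CPM in Control (log2 fold change 2.27, SE 0.11, edgeR adjusted p 1.7e-13), and Psmb1 had the smallest increase (0.30). Psmb1 lost its call with RLE scaling, with the VQ-D5 bone marrow libraries alone and without Control replicate 2 or VQ-D5 replicate 2 or 3. Of 32 oxidative phosphorylation genes, 26 were higher and 1, Ndufa1, lower (median 0.86), or 2 lower without VQ-D5 replicate 3. Atp5b of the ATP synthase was at 1317, 1446, 1419 and 1463 CPM in VQ-D5 and 449, 470.3 and 464 CPM in Control.

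Of 18 glycolysis genes, 10 were higher and 3 lower (median 0.80). Slc16a1, a lactate transporter, was at 315, 362, 317 and 398 CPM in VQ-D5, against 22.4, 45.7 and 19.2 CPM in Control (log2 fold change 3.57, SE 0.24, edgeR adjusted p 3.3e-10). The other lactate transporter of the list moved the opposite way: Slc16a3 was at 0.719, 0.459, 1.96 and 0.583 CPM in VQ-D5 and 6.48, 27.3 and 5.52 CPM in Control. Ldha, lactate dehydrogenase, and Eno1, enolase, rose by 2.67 and 2.77, whereas the glucose transporter Slc2a1 was at 21.1, 21.3, 25.0 and 26.8 and 27.6, 23.9 and 23.1 CPM and did not pass. Glycolytic genes also have processed copies, which makes single values uncertain.

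Of 23 cholesterol and fatty acid genes, 9 were higher and 2 lower (median 0.37). Fasn, the fatty acid synthase, was at 667, 764, 798 and 906 CPM in VQ-D5, against 126, 138 and 136 CPM in Control (log2 fold change 2.43, SE 0.11, edgeR adjusted p 9.3e-14). Scd1, which desaturates fatty acids, was at 0, 0.230, 1.70 and 0.583 CPM in VQ-D5, against 33.1, 118 and 121 CPM in Control (log2 fold change -7.09, SE 1.38, edgeR adjusted p 3.4e-04), while Scd2 did not pass. Without Control replicate 2 the list held 5 lower genes. Of 19 ATF4 target and serine synthesis genes, 7 were higher and 5 lower (median 0.15). The enzymes of serine synthesis Phgdh, Psat1 and Psph rose by 1.80, 2.56 and 1.28. The stress factors Ddit3 and Chac1 fell by 3.44 and 3.82, and Atf4 itself by 0.75. Slc3a2, the partner chain of amino acid transporters, was at 209, 226, 241 and 259.7 CPM in VQ-D5 and 2004, 1170.2 and 1566 CPM in Control, while the transporter chain Slc7a5 rose by 1.49.

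**Figure D3:**
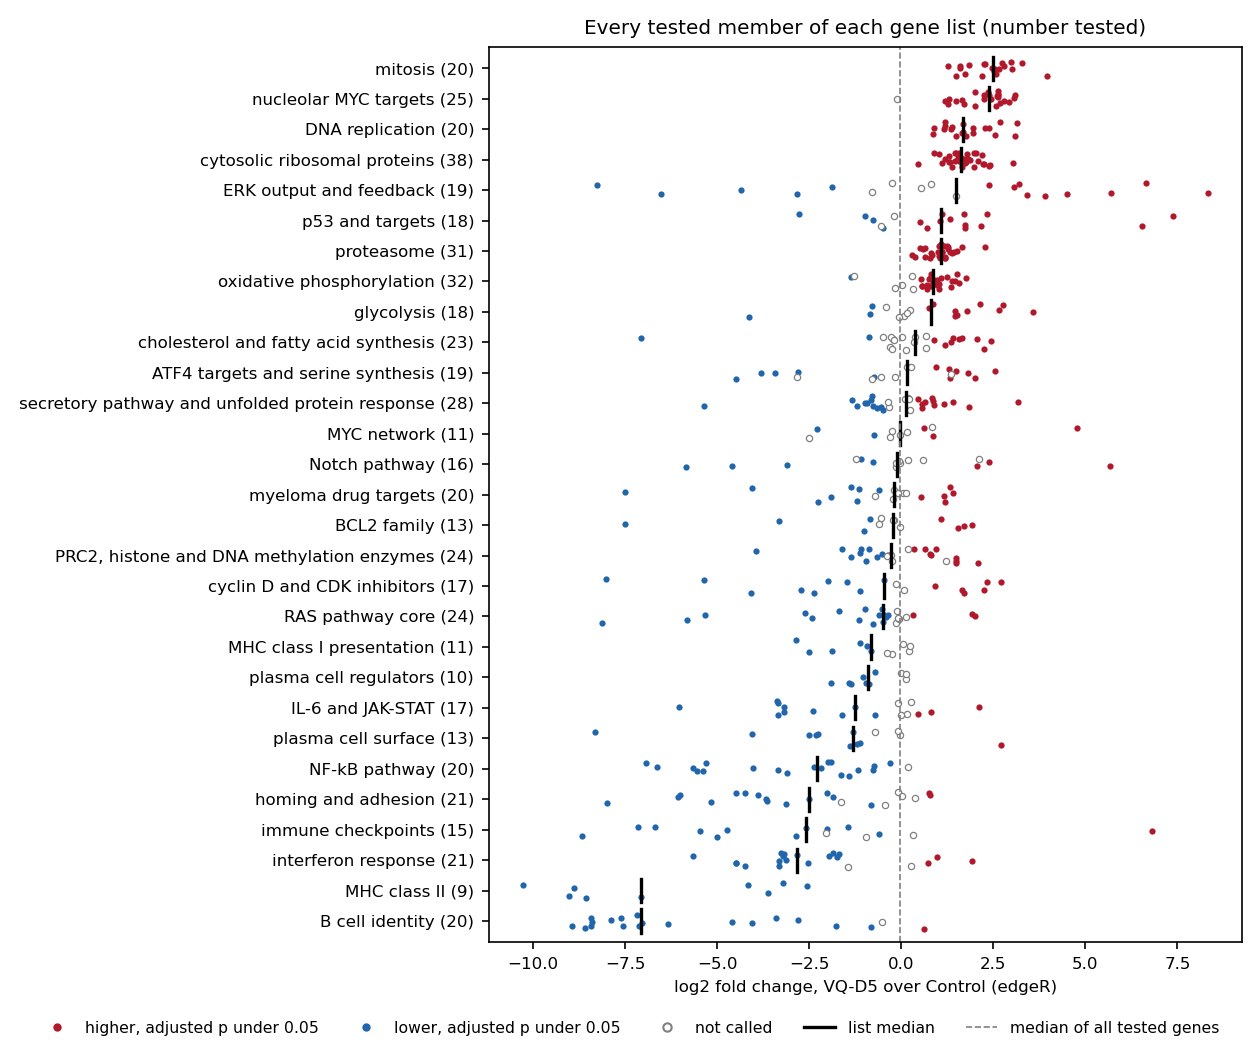
Log2 fold change of VQ-D5 over Control (edgeR) for every tested member of 29 gene lists, ordered by list median, with the number tested in brackets. Red dots were called higher, blue dots lower and open dots not called. List medians ran from 2.49 for mitosis to -7.08 for B cell identity, against -0.04 for all genes (dashed line).

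Plasma cell identity genes were lower or did not pass. Of 10 regulators, 7 were lower and none higher (median -0.91, against 32.5% of all genes called lower). Prdm1, which encodes the plasma cell repressor BLIMP1, was at 189, 190.3, 171 and 212 CPM in VQ-D5, against 599.5, 341 and 585 CPM in Control (log2 fold change -1.41, SE 0.30, edgeR adjusted p 6.6e-04). Irf4 was at 1353, 1377, 1268 and 1343 CPM in VQ-D5 and 1619, 857 and 1284 CPM in Control and did not pass (edgeR adjusted p 0.46). Xbp1, the factor of the secretory program, fell by 0.72 with overlapping values, and the Ikaros family genes Ikzf1 and Ikzf3 fell by 1.38 and 1.92. Bhlha15 and Zbtb20 did not pass. Irf4 passed without Control replicate 1, and Xbp1 lost its call with counts summed per recipient.

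Of 13 tested plasma cell surface genes, 1 was higher and 9 lower (median -1.31). Ly6d, a GPI-anchored B lineage antigen, was at 0, 0.689, 0.131 and 0.583 CPM in VQ-D5, against 175, 118 and 131 CPM in Control (log2 fold change -8.33, SE 0.29, edgeR adjusted p 1.4e-15). Cd38 was at 2.16, 1.15, 0.917 and 0.583 CPM in VQ-D5, against 21.4, 15.7 and 23.9 CPM in Control (log2 fold change -4.05, SE 0.79, edgeR adjusted p 1.8e-04). Tnfrsf13b, which encodes the BAFF and APRIL receptor TACI, fell by 2.51, and Tnfrsf17, which encodes BCMA, was at 53.2, 76.4, 59.3 and 80.2 CPM in VQ-D5 and 136, 77.8 and 120.1 CPM in Control without passing the test. Cd320, the transcobalamin receptor, was the 1 higher gene (2.71). Cd81 and Cd93 did not pass.

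Secretory pathway genes held calls in both directions, as did all genes (31.2% higher and 32.5% lower). Of 28 tested, 11 were higher and 11 lower (median 0.13). Igj, the joining chain of polymeric antibody, was at 1316, 628, 1147 and 198 CPM in VQ-D5, against 32911, 29954 and 57526 CPM in Control (log2 fold change -5.36, SE 0.60, edgeR adjusted p 1.4e-06). It varied several-fold between VQ-D5 libraries, yet each of them lay far below Control. The degradation factor Derl3 fell by 1.35, and the oxidoreductase Txndc5 by 1.20. The Txndc5 call was lost without Control replicate 1 or 3 or VQ-D5 replicate 1 or 2, and with the VQ-D5 lymph node libraries alone. Fkbp11, a prolyl isomerase of secretory tissues, was at 504, 523, 458 and 421 CPM in VQ-D5, against 57.7, 45.4 and 56.2 CPM in Control (log2 fold change 3.17, SE 0.18, edgeR adjusted p 4.0e-12), and Pdia6, a disulfide isomerase, rose by 1.85. The chaperones Hspa5 (BiP) and Hsp90b1 (GRP94) each rose by 0.57. Per unit length, Hsp90b1 was the most abundant transcript of VQ-D5 among the genes ranked, which leave out rRNA, small RNA, predicted genes, pseudogenes and sex-linked genes, at 10788 ± 593 TPM in VQ-D5 and 7243 ± 1186 TPM in Control (authors' values, mean ± SD, n = 4 and 3). It was followed by the ribosomal gene Rpl8 and the chaperone gene Calr, at 5918 ± 117 and 5357 ± 146 TPM in VQ-D5. Immunoglobulin segments are not among the listed symbols and were not analysed here.

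The genes of B cell identity and of MHC class II had the lowest medians of the 29 lists plotted. Of 20 tested B cell identity genes, 18 were lower and 1 higher, with a median of -7.08. Ptprc, the phosphatase CD45 whose B220 form the sort excluded, was at 2.40, 4.82, 2.23 and 1.05 CPM in VQ-D5, against 384, 580.2 and 452 CPM in Control (log2 fold change -7.61, SE 0.28, edgeR adjusted p 3.8e-14). Cd79a, a chain of the B cell receptor, was at 0.719, 0.689, 0.393 and 0.233 CPM in VQ-D5, against 179.9, 201 and 356 CPM in Control, and its partner Cd79b at 64.4, 58.8, 80.7 and 72.6 and 203, 182 and 241 CPM. The pair therefore differed, with Cd79b well read in VQ-D5. Ms4a1 (CD20) had 1 count in the 4 VQ-D5 libraries, a ratio of Control to VQ-D5 of 1612 (95% counting interval 288 to 63778). Blnk, an adaptor of receptor signalling, was the 1 higher gene (0.61). The lymphoid precursor genes Dntt and Rag1 were at 0.117 to 0.393 and 0 to 0.262 CPM in VQ-D5, against 111, 22.2 and 2.36 and 58.4, 29.7 and 2.36 CPM in Control, with the most in Control replicate 1. Without Control replicate 1, 18 B cell genes were lower, and without replicate 2, 15.

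All 9 tested MHC class II genes were lower (median -7.06). Without Control replicate 2, 7 were lower, and without VQ-D5 replicate 1, 2 or 4, 8 were. Cd74, the invariant chain, was at 4.07, 11.7, 3.80 and 4.78 CPM in VQ-D5, against 3940.4, 2776 and 3033 CPM in Control (log2 fold change -8.90, SE 0.47, edgeR adjusted p 1.4e-10). The class II chains H2-Ab1 and H2-Eb1 fell by 7.06 and 8.58, and Ciita, their activator, was at 0.719, 0.459, 0.524 and 0.583 CPM in VQ-D5 and 3.57, 47.4 and 2.10 CPM in Control. Most of the Ciita RNA of Control was in replicate 2, and without that library its call was lost. Of 11 MHC class I presentation genes, 6 were lower and none higher (median -0.81). B2m, the shared light chain, was at 412, 354, 359.6 and 269.8 CPM in VQ-D5, against 3227, 2149 and 2719.7 CPM in Control (log2 fold change -2.85, SE 0.18, edgeR adjusted p 2.2e-11), and H2-K1 and Tapbp fell by 1.89 and 2.50. The immunoproteasome genes Psmb8, Psmb9 and Psmb10 did not pass. Psmb8 passed without Control replicate 1.

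Genes of the NF-kB pathway were lower almost without exception. Of 20 tested, 19 were lower and none higher, with a median of -2.28. Tnfaip3, which encodes the inhibitor A20, was at 0.958, 1.38, 0.655 and 0.933 CPM in VQ-D5, against 155, 113 and 115 CPM in Control (log2 fold change -6.64, SE 0.47, edgeR adjusted p 1.2e-09). Nfkbia, the inhibitor IκBα and itself a target of the pathway, was at 19.9, 24.1, 36.0 and 25.2 CPM in VQ-D5, against 259, 226 and 319 CPM in Control. The subunit genes Relb and Nfkb2 of the alternative branch fell by 5.31 and 4.03, and Rela by 0.31 with overlapping values. Rela lost its call without Control replicate 1 or 2 or VQ-D5 replicate 1. The Rela call was also lost with no filter and with the 7 libraries fitted alone, with or without a tissue term. Either VQ-D5 site alone and counts summed per recipient ended it too. Traf3, which restrains the alternative branch, was the 1 gene that did not pass.

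Cytokine and interferon genes were mostly lower. Of 17 IL-6 and JAK-STAT genes, 3 were higher and 10 lower (median -1.26). Il6ra was at 66.4, 53.7, 52.4 and 54.2 CPM in VQ-D5 and 54.8, 58.0 and 47.0 CPM in Control and did not pass, while Stat3 and Pim1, a kinase gene induced by STAT3, fell by 1.26 and 3.18. Socs2, a suppressor of cytokine signalling, rose by 2.11. Of 21 tested interferon response genes, 16 were lower and 3 higher (median -2.83). Zbp1, a nucleic acid sensor, and Irf7 fell by 3.33 and 3.14, whereas Isg20, Bst2 and Ifi44 rose by 0.97, 0.73 and 1.91. Ifi44 lost its call without Control replicate 3, with the 7 libraries fitted alone with a tissue term and with counts summed per recipient.

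BCL2 family genes were called in shares close to those of all genes (31.2% higher and 32.5% lower). Of 13 tested BCL2 family genes, 4 were higher and 4 lower (median -0.22). Bcl2, the founding survival gene, was at 0.719, 0.918, 0.131 and 0.350 CPM in VQ-D5, against 158, 128 and 169 CPM in Control (log2 fold change -7.50, SE 0.76, edgeR adjusted p 3.5e-07). Bcl2l1, which encodes BCL-XL, fell by 3.31. Mcl1, on which plasma cells depend, was at 576, 563, 612 and 644 CPM in VQ-D5 and 752, 575 and 687 CPM in Control (log2 fold change -0.22, edgeR adjusted p 0.064). It passed without Control replicate 2 and with RLE scaling. The 4 higher genes promote cell death: Bax, Bak1, Bcl2l11 (BIM) and Pmaip1 (NOXA) rose by 1.69, 1.07, 1.53 and 1.91. Of 18 tested genes of p53 and its targets, 12 were higher and 4 lower (median 1.07). Trp53 was at 54.9, 59.4, 65.2 and 72.6 CPM in VQ-D5, against 28.5, 40.9 and 37.3 CPM in Control (log2 fold change 0.70, SE 0.13, edgeR adjusted p 5.9e-05). Eda2r, a death receptor, was at 2.40, 6.43, 1.57 and 6.88 CPM in VQ-D5 with 0 counts in Control (at least 14.1-fold higher), and Zmat3 and Sesn1 each rose by 1.74. Mdm2 and Mdm4, which restrain p53, fell by 0.50 and 0.98.

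Surface genes of homing and of immune contact were lower for the most part. Of 21 tested homing and adhesion genes, 2 were higher and 14 lower (median -2.50). Cxcr4, the receptor that holds plasma cells in the marrow, was at 112, 85.2, 109.8 and 99.1 CPM in VQ-D5 and 103, 128 and 94.6 CPM in Control (edgeR adjusted p 0.7). The integrin genes Itga4 and Itgb1, which form VLA-4, rose by 0.76 and 0.77, and Itgb7 and Itgb2 fell by 3.12 and 3.64. Of 15 tested immune checkpoint genes, 11 were lower and 1 higher (median -2.60). Cd276, which encodes B7-H3, was at 56.3, 40.6, 48.7 and 36.3 CPM in VQ-D5, against 0.324, 1.02 and 0 CPM in Control (log2 fold change 6.82, SE 0.51, edgeR adjusted p 4.1e-10). Cd274 (PD-L1) fell by 1.46, and Btla and Lag3 by 7.15 and 6.69.

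Chromatin enzymes and drug targets held calls in both directions, as did all genes. Of 24 genes of PRC2, histone and DNA methylation, 9 were higher and 10 lower (median -0.27). Ezh2, the PRC2 methyltransferase, was at 12.9, 25.0, 24.5 and 26.5 CPM in VQ-D5, against 39.9, 60.7 and 40.7 CPM in Control (log2 fold change -1.13, SE 0.32, edgeR adjusted p 0.0049), while the PRC2 subunit Suz12 rose by 0.65. Phf1 and Phf19, alternative PRC2 partners, moved in opposite directions, with log2 fold changes of -3.94 and 2.08. Whsc1, the H3K36 methyltransferase NSD2 that a translocation activates in some human myeloma, rose by 0.80. Of 20 tested myeloma drug targets, 5 were higher and 8 lower (median -0.20). Crbn, the receptor of lenalidomide, was at 217, 202, 233 and 204 CPM in VQ-D5, against 102, 84.6 and 99.3 CPM in Control (log2 fold change 1.19, SE 0.11, edgeR adjusted p 7.7e-09). Xpo1, the nuclear exporter hit by selinexor, and Psmb5, the proteasome subunit hit by bortezomib, rose by 1.40 and 1.31. Gprc5d was not tested: it was at 0, 2.30, 0.393 and 2.10 CPM in VQ-D5 and had 0 counts in Control. Of 16 tested Notch genes, 3 were higher and 5 lower (median -0.11). Jag2, a ligand, was at 39.0, 30.3, 46.2 and 34.6 CPM in VQ-D5, against 0.648, 1.36 and 0.263 CPM in Control (log2 fold change 5.67, SE 0.53, edgeR adjusted p 5.4e-09), and the target gene Hes1 rose by 2.39.

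Libraries of the groups did not overlap for 32.7% of tested genes with VQ-D5 higher and 34.0% with VQ-D5 lower. Ranked by size among called genes without overlap and with at least 10 CPM in the higher group, the leading increases were genes with few or no counts in Control. Strc (stereocilin) was at 61.8, 61.1, 61.6 and 57.9 CPM in VQ-D5 with 0 counts in Control, at least 198-fold higher, but it overlaps Ckmt1 in the annotation. Sln (sarcolipin, a regulator of the calcium pump) was at 50.8, 23.2, 50.6 and 9.91 CPM and Pax3, a developmental transcription factor, at 24.7, 26.2, 26.3 and 22.6 CPM in VQ-D5, both with 0 counts in Control (at least 110.0-fold and 81.7-fold higher). Sh3rf2, Fbln1, Mpp3, Syt7, Asb16, Car8 and Sectm1a also had 0 Control counts, with bounds of 73.6-fold for Sh3rf2 down to 38.4-fold for Car8 and Sectm1a. Spats2 was at 72.6, 79.9, 94.7 and 101 CPM in VQ-D5 and had 1 Control count, a ratio of 889 (95% counting interval 159 to 35122). Scn11a, a voltage-gated sodium channel of sensory neurons, was at 292, 193, 281 and 124 CPM in VQ-D5, against 0.973, 0.341 and 0.263 CPM in Control (log2 fold change 8.86, SE 0.55, edgeR adjusted p 1.4e-10). In all, 84 called genes had no count in Control.

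The leading decreases were genes of several kinds, and 60 called genes had no count in VQ-D5. Trib2, a pseudokinase, had 0 counts in VQ-D5, against 31.5, 50.5 and 37.6 CPM in Control, at least 329-fold lower. Dnase1l3, a secreted nuclease, and Tlr13, a sensor of bacterial RNA, also had 0 counts in VQ-D5, at least 127-fold and 113-fold lower. Hook1, an adaptor between cargo and microtubules, was at 0, 0.459, 0 and 0 CPM in VQ-D5, against 97.6, 65.5 and 102 CPM in Control, with a ratio of Control to VQ-D5 of 1112 (95% counting interval 307 to 9198). Klf4, a transcription factor of quiescent B cells, was at 0, 0, 0.131 and 0 CPM in VQ-D5 and 98.6, 53.9 and 18.1 CPM in Control, a ratio of Control to VQ-D5 of 1338 (95% counting interval 239 to 52932). Cdk14, a cyclin-dependent kinase, had 3 counts in VQ-D5 and a ratio of 178 (95% counting interval 60.1 to 870.1) in the same direction. The globin genes Hbb-bt and Hbb-b2, with identical counts in every library, also ranked here, next to the erythroid sums given above.

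VQ-D5 was then compared with each other VQ line. It differed from VQ-D2 in 4970 genes (38.6%, with 20.0% higher and 18.6% lower), from VQ-D1 in 7523 (58.5%, with 29.7% higher and 28.8% lower) and from VQ-D4 in 7557 (58.7%, with 29.6% higher and 29.1% lower). A gene stood apart when it was called in the same direction against Control and against each of the other 3 VQ lines, which held for 983 genes higher in VQ-D5 (7.64%) and 705 lower (5.48%). These comparisons share the VQ-D5 libraries, and the other lines were sampled partly at other sites. Of the lists, 16 of 31 proteasome genes, 12 of 25 nucleolar MYC targets and 12 of 20 mitosis genes stood apart as higher, as did 5 of 38 ribosomal protein genes. Against VQ-D2, 14 nucleolar genes were higher and 2 lower, although Myc was lower in VQ-D5 than in VQ-D2. Among lower genes, 6 of 20 NF-kB genes, 4 of 9 MHC class II genes and 4 of 11 MHC class I genes stood apart. Ptprc was at 2.62 ± 1.58 CPM in VQ-D5, 204 ± 6.01 in VQ-D1, 195 ± 29.0 in VQ-D2 and 3.54 ± 4.37 in VQ-D4, against 472 ± 99.5 CPM in Control. It was thus well read in VQ-D2, and lower in VQ-D5 by a log2 difference of -6.36 (SE 0.26, edgeR adjusted p 4.7e-13). Epha2 was higher in VQ-D5 than in VQ-D2 by 5.46 log2 units.

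The 8 higher genes with the largest smallest difference were close to unread in Control and the other VQ lines. Scn11a averaged 222 ± 79.0 CPM in VQ-D5, 0.268 ± 0.325 in VQ-D1, 0.217 ± 0.435 in VQ-D2 and 0.229 ± 0.206 in VQ-D4, against 0.525 ± 0.389 CPM in Control (SD, n = 4 per line and 3 Control). Tspan7, a tetraspanin, averaged 55.2 ± 5.63 CPM in VQ-D5, 0.0373 ± 0.0746 in VQ-D2 and 0.196 ± 0.172 CPM in Control, with 0 in VQ-D1 and VQ-D4. Dgkk, a diacylglycerol kinase, was at 56.1, 19.7, 60.4 and 9.44 CPM in the VQ-D5 libraries and Sln at 50.8, 23.2, 50.6 and 9.91 CPM, so both varied several-fold within the line. Ak4, a mitochondrial adenylate kinase, averaged 24.3 ± 4.47 CPM in VQ-D5 against 0.490 ± 0.428 CPM in Control, and Sept3, a septin, 14.3 ± 3.11 against 0.0876 ± 0.152 CPM. Zfp532, a zinc finger protein, and Fbln1, a matrix protein, averaged 10.6 ± 2.84 and 17.5 ± 3.32 CPM in VQ-D5. Zfp532 and Dgkk lost their call against Control with DESeq2. Against VQ-D2, DESeq2 did not call Dgkk, Fbln1 and Zfp532.

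The 8 lower genes were read in Control and in each other VQ line and nearly unread in VQ-D5. The sixth group of the series, t-VK12653, was not part of this comparison, and its libraries too were nearly unread for Nfatc2 and Atp9a. Cry1, a repressor of the circadian clock, was at 0.240, 0.230, 0.131 and 0.117 CPM in VQ-D5, and averaged 35.5 ± 1.95 in VQ-D1, 34.9 ± 2.24 in VQ-D2 and 46.5 ± 5.84 in VQ-D4, against 29.8 ± 7.01 CPM in Control. Hook1 averaged 0.115 ± 0.230 CPM in VQ-D5, 121 ± 8.66 in VQ-D1, 103 ± 4.11 in VQ-D2 and 118 ± 21.0 in VQ-D4, against 88.5 ± 20.1 CPM in Control. Fbxo21, a ubiquitin ligase subunit, had 2 counts in the 4 VQ-D5 libraries and averaged 22.8 ± 3.89 CPM in Control. Nfatc2, a calcium-regulated transcription factor, averaged 0.357 ± 0.409 against 40.1 ± 5.66 CPM, and Mon1b, an activator of the late endosome GTPase RAB7, 0.292 ± 0.348 against 37.8 ± 4.60 CPM, VQ-D5 first. Fam172a, Cstf2t, a polyadenylation factor, and Atp9a, a lipid flippase relative, completed the set, with means of 0.519 ± 0.885, 0.209 ± 0.198 and 0.268 ± 0.148 CPM in VQ-D5. Cstf2t lies within Prkg1, Fam172a overlaps Pou5f2 and Mon1b overlaps Syce1l, so part of these reads may belong to the partner.

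**Figure D4:**
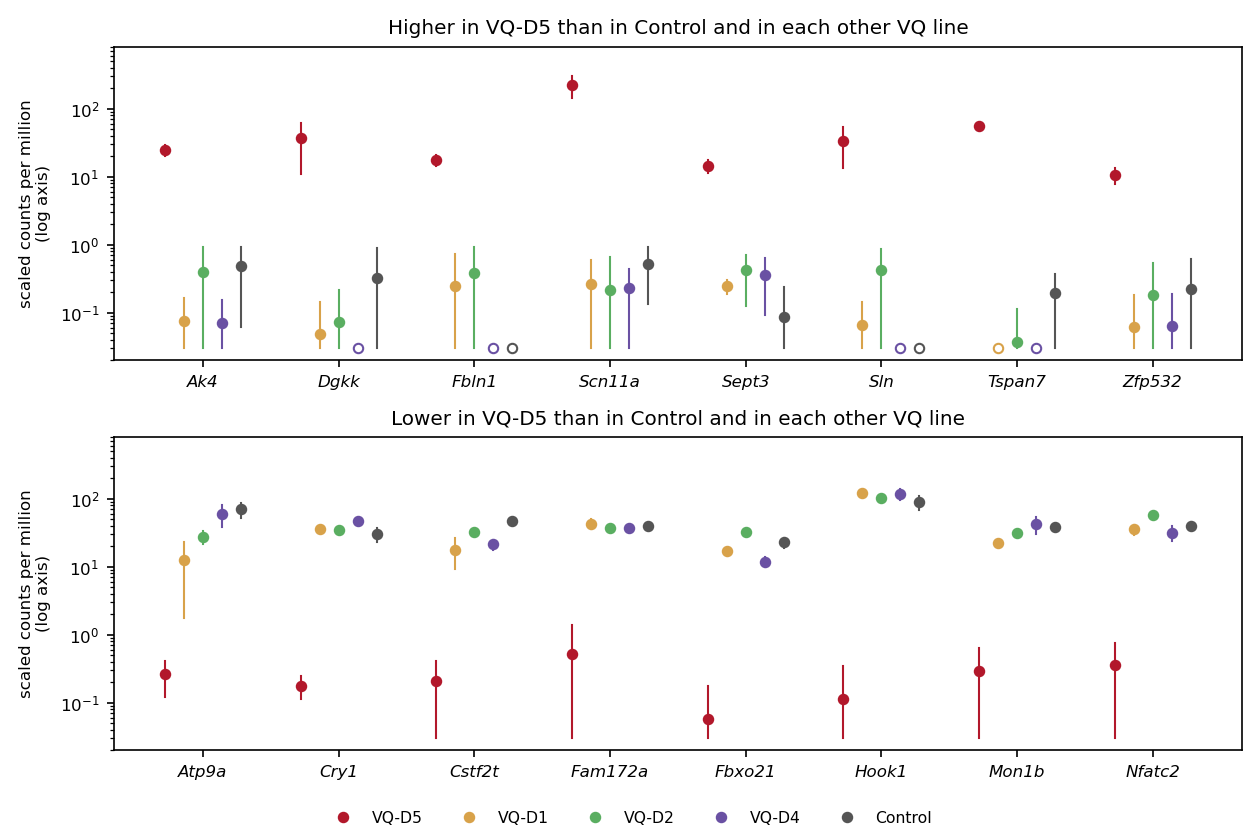
Mean CPM (log axis, SD bars) of the 8 genes most higher and the 8 most lower in VQ-D5 than in Control and each other VQ line, with VQ-D5 left, then VQ-D1, VQ-D2 and VQ-D4, and Control right. Means of 0 are open symbols, and SD bars are cut at 0.03. Scn11a averaged 222 ± 79.0 CPM in VQ-D5 and 0.525 ± 0.389 CPM in Control, and Hook1 0.115 ± 0.230 and 88.5 ± 20.1 CPM.

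Within VQ-D5, the lymph node and bone marrow libraries were compared. The 4 libraries were alike, with Pearson correlations of log2 CPM across genes of 0.975 to 0.984. In the fit of all 23 libraries with a mean per group and tissue, 1 gene (0.00777%) passed the threshold, and 428 genes had an unadjusted p under 0.05. That gene was Tmed3, a cargo receptor of the early secretory pathway, at 8.38 and 7.46 CPM in VQ-D5 lymph node and 25.9 and 25.0 CPM in VQ-D5 bone marrow (log2 fold change -1.68, SE 0.16, edgeR adjusted p 8.4e-05). Control bone marrow held 75.5, 70.3 and 70.1 CPM, so both VQ-D5 sites lay below Control. Of the other tools, DESeq2 called 7 genes.

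When the 4 libraries were paired by recipient, 111 of 10892 genes (1.02%) were called, 46 higher and 65 lower in lymph node. Neutrophil genes were prominent among the lower ones, with 8 of 9 fitted called. Ngp was at 0.131 and 0 CPM in lymph node and 16.1 and 24.1 CPM in bone marrow (log2 fold change -7.97, edgeR adjusted p 4.6e-05), and Mpo, the neutrophil peroxidase, at 0.262 and 0.466 and 26.4 and 35.6 CPM. Xist was at 1.31 and 3.38 CPM in lymph node and 5.27 and 87.2 CPM in bone marrow, although the Y-linked genes were at 0 at both sites. Of the immediate early and heat shock list, 5 of 14 fitted genes were called higher in lymph node, 4 of them immediate early genes and 1 a heat shock gene. Fos was at 198 and 133 CPM in lymph node and 47.9 and 39.2 CPM in bone marrow (log2 fold change 1.89, edgeR adjusted p 3.9e-06), and Egr1 at 152 and 284 and 66.6 and 171 CPM.

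Beyond these sets, Cdk6 was at 10.9 and 11.1 CPM in lymph node and 3.83 and 3.90 CPM in bone marrow (log2 fold change 1.48, edgeR adjusted p 0.04). Ccnd2 was also higher in lymph node, by 0.61 log2 units (edgeR adjusted p 0.023). The glycolytic genes Ldha and Pkm (pyruvate kinase) were higher in lymph node by 0.30 and 0.27 log2 units, and the sterol enzyme gene Sqle by 0.58. Lower in lymph node were Ikzf3 (-0.44), B2m (-0.32) and the ribosomal genes Rpl13 (-0.58) and Rpl19 (-1.24). Another ribosomal gene, Rps20, was higher in lymph node (0.37), so of 38 fitted ribosomal genes 1 was higher and 2 lower. None of the mitosis, replication, proteasome, NF-kB or p53 genes was called between the sites in this fit of 2 recipients. With 2 pairs, this fit leaves 1 residual degree of freedom per gene, and the part of neighbouring neutrophils in the site differences was not tested.

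**Figure D5:**
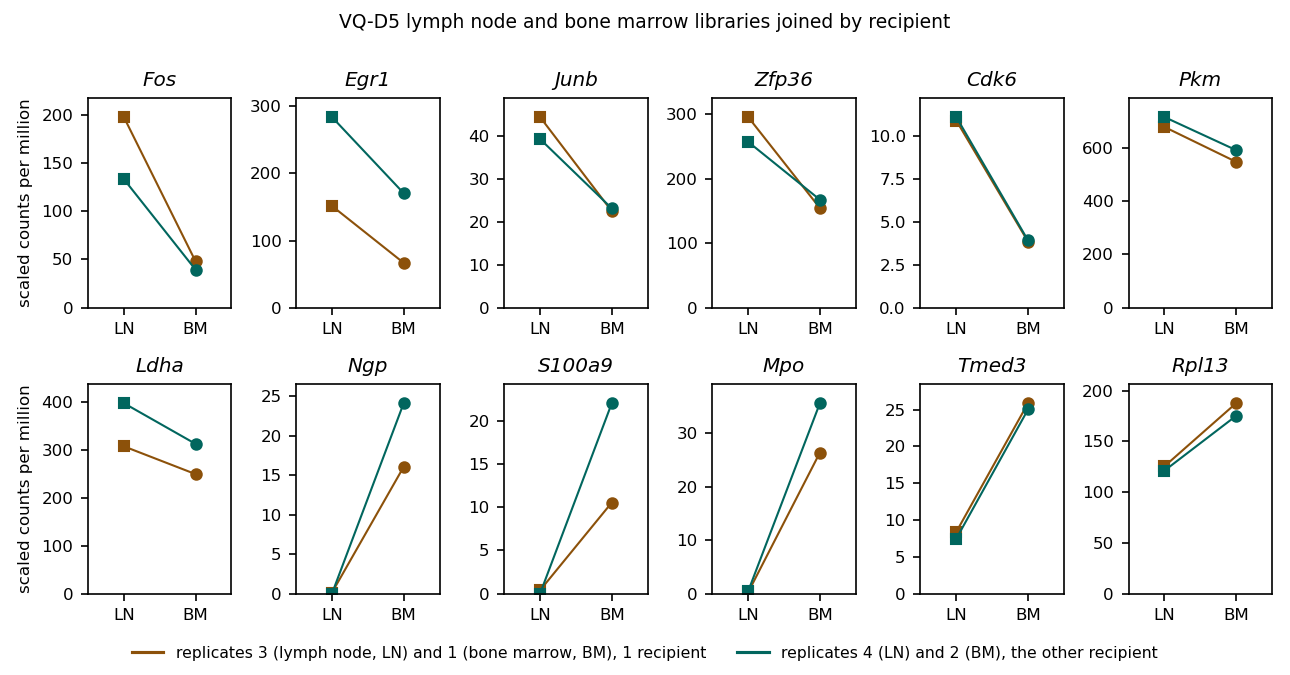
CPM of 12 genes in the VQ-D5 lymph node (LN, left) and bone marrow (BM, right) libraries, with a line joining the libraries of 1 recipient. Fos was at 198 and 133 CPM in lymph node and 47.9 and 39.2 CPM in bone marrow, and Ngp at 0.131 and 0 and 16.1 and 24.1 CPM. All 12 genes were taken from those called in the fit paired by recipient. That both recipients move the same way in each panel follows from this choice and is not separate evidence.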

How the data were processed

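Sorted cells were lysed for column extraction (RNeasy Micro) and libraries were made with the SMARTer Stranded Total RNA Pico kit, per the labels' protocols. STAR, featureCounts, DESeq2, GRCm38 and mm10 are named per the submitters' processing notes. Their versions, the annotation and the strand setting: not given in the sources used here. Each deposited table holds whole-number read counts, FPKM and TPM for 24063 symbols, per the file headers. FPKM values were made by the authors and not used here, and the authors' TPM served only for levels between genes.

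Tests used the deposited counts in R 4.3.3 with edgeR 4.0.16 (TMM scaling, filterByExpr with minimum count 10 and minimum total 15, robust quasi-likelihood F-test, Benjamini-Hochberg adjustment, threshold 0.05). The fit held all 23 libraries with group and tissue as terms (14 residual degrees of freedom). A second fit with a mean per group and tissue (10) gave the site comparisons. DESeq2 1.42.0 and limma 3.58.1 were alternatives. The code was tested on simulated counts. No library pair within VQ-D5 or Control looked like a repeat deposit (chi-square of counts 4.57 to 12.9 per degree of freedom). A group at 0 was bounded by 3 counts over the group, and 1 to 3 counts gave a ratio with a 95% exact counting interval, both covering counting error only.

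The members and all 38 gene lists were chosen with earlier results of these data known. Named genes were Myc and Nras, the 12 highest and 12 lowest fold changes without overlap and with at least 10 CPM, 8 per direction apart from Control and the other VQ lines, genes called between sites, the 10 highest TPM values, and up to 6 called members per list or members taken for their level. The rankings skipped sex-linked and predicted genes, pseudogenes, rRNA and small RNA. Values for recipients come from recipient numbers in the table names. Chromosome groups and sums per recipient were added after the data were seen. Results for some list members are not reported here.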

Additional observations from a re-analysis of the deposited data

Results flagged for a closer look

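Of 206 named genes whose CPM was not the same in all 4 VQ-D5 libraries, 14 had 1 library far from the other 3 by Dixon's test, which by chance picks out about 1 group in 20. For Fbxo21, Hook1, Klf4 and Ms4a1 that rate does not apply, since 1 or 2 counts in 1 library beside 0 in the others always stand apart. Cad was at 471 CPM in replicate 4 and 384 to 390.0 CPM in the others. Cd74 was at 11.7 CPM in replicate 2 and 3.8 to 4.78 CPM in the others. Ezh2 was at 12.9 CPM in replicate 1 and 24.5 to 26.5 CPM in the others. Fam172a was at 1.84 CPM in replicate 2 and 0.0 to 0.24 CPM in the others. Fbxo21 was at 0.233 CPM in replicate 4, with 0 in the other libraries. Hook1 was at 0.459 CPM in replicate 2, with 0 in the other libraries. Il6ra was at 66.4 CPM in replicate 1 and 52.4 to 54.2 CPM in the others. Klf4 was at 0.131 CPM in replicate 3, with 0 in the other libraries. Ms4a1 was at 0.117 CPM in replicate 4, with 0 in the other libraries. Psmb8 was at 235 CPM in replicate 4 and 266 to 273 CPM in the others. Rasgrp3 was at 1.96 CPM in replicate 3 and 0.24 to 0.466 CPM in the others. Rfc4 was at 114 CPM in replicate 1 and 98 to 99.4 CPM in the others. Xist was at 87.2 CPM in replicate 2 and 1.31 to 5.27 CPM in the others. Zfp532 was at 14.9 CPM in replicate 1 and 9.04 to 9.33 CPM in the others. 

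Tmed3 differed between the sites of VQ-D5, with a log2 fold change of lymph node over bone marrow of -1.68 in edgeR's fit of all 23 libraries. With the 4 VQ-D5 libraries fitted alone, the value was -1.71 and passed with the recipient as a block (edgeR adjusted p 0.0021), but not without it.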

How the results depend on the processing

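The count of genes called between VQ-D5 and Control (8206) stayed within 1.5 times under every alternative run: 8290 with RLE scaling, 8240 with DESeq2, 7968 with limma voom, 8227 with no filter, 8214 without Rn45s and small RNA, 7213 with the 7 libraries alone and a tissue term, 8034 without that term, and 7415 with counts summed per recipient, chosen after seeing the data. RLE scaling moved the median of all genes to -0.13 and the split to 3748 higher and 4542 lower. Leaving out 1 library gave 7520 to 8141 genes, 5000 to 5327 past 1 log2 unit, 6523 to 7744 for bone marrow alone, 4223 to 4618 against VQ-D2, 6698 to 7296 against VQ-D1, 6456 to 7524 against VQ-D4, and 1442 to 1705 standing apart.

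Lymph node against bone marrow within VQ-D5 was the comparison whose count moved. Against the 1 gene reported, DESeq2 called 7, no filter 93, the 4 libraries alone 2 and the recipient pairing 111, and leaving out 1 VQ-D5 library gave 1 to 3. No filter tested 21680 genes; the causes of the other changes were not tested.

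With the replicate number as a block in the 7 libraries, 7489 genes were called (3807 higher, 3682 lower). Same-numbered VQ-D5 and Control libraries had correlations of their deviations of -0.08, 0.06 and 0.09, so the numbers do not pair them. Under the block the ERK list held 9 higher and 2 lower genes and the immediate early and heat shock list 4 lower. 

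Of the 216 genes named and tested between VQ-D5 and Control, 17 lost their call under at least 1 alternative and 9 gained one. RLE scaling, DESeq2 and the exclusion of Rn45s and small RNA each ended the call of Psmb1. No called gene changed direction. The 13 genes that did change direction were not called (log2 fold change as reported in brackets), and the cause was not tested. Bhlha15 (-0.0133) had 0.0972 with no filter, 0.0363 with the 7 libraries and a tissue term, 0.0516 with the 7 libraries and no tissue term, 0.10 with the replicate block, 0.0181 with VQ-D5 bone marrow, 0.0698 with VQ-D5 lymph node, 0.10 with sums per recipient and -0.17 to 0.19 with 1 library left out. Cd81 (-0.0461) had 0.0627 with no filter, 0.0129 with VQ-D5 lymph node and -0.17 to 0.0628 with 1 library left out. Cd93 (-0.0845) had 0.0291 with no filter and -0.27 to 0.0992 with 1 library left out. Cxcr4 (-0.0881) had 0.0194 with no filter and -0.20 to 0.0268 with 1 library left out. Dusp5 (-0.26) had -0.59 to 0.72 with 1 library left out. Fosl1 (-0.80) had -1.22 to 0.15 with 1 library left out. Irf4 (0.13) had -0.12 to 0.40 with 1 library left out. Odc1 (-0.12) had 0.000745 with no filter and -0.39 to 0.47 with 1 library left out. Psmb10 (0.0326) had -0.0552 with RLE scaling, -0.0496 with DESeq2, -0.0182 without Rn45s and small RNA and -0.0478 to 0.0699 with 1 library left out. Scd2 (0.00527) had -0.082 with RLE scaling, -0.0836 with DESeq2, -0.0441 without Rn45s and small RNA and -0.16 to 0.31 with 1 library left out. Slc2a1 (-0.0539) had 0.0535 with no filter, 0.0631 with VQ-D5 lymph node, 0.0164 with sums per recipient and -0.12 to 0.0587 with 1 library left out. Xist (-3.68) had -6.56 to 3.16 with 1 library left out. Zbtb20 (0.14) had -0.0143 with VQ-D5 bone marrow and -0.0602 to 0.27 with 1 library left out. Xist passed the test in the opposite direction without Control replicate 1 (log2 fold change 3.16, edgeR adjusted p 0.041).

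Counting depth limits genes near the floor of 3 counts per group, 0.121 CPM in VQ-D5 and 0.305 CPM in Control. Site and genotype are partly mixed in the design, the tumour is 1 donor in 2 mice, and Control held more RNA of other blood cells. Of the 216 named genes tested, 55 overlap another listed gene, and their reads cannot be told apart.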

Other observations

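Several VQ-D5 genes differed more between the recipients than between the sites. These genes were picked after their values were seen, and no test was made between the recipients. Replicates 4 and 2 share a recipient, as do 3 and 1. Sln was at 9.91 and 23.2 CPM in replicates 4 and 2, against 50.6 and 50.8 CPM in replicates 3 and 1, and Dgkk at 9.44 and 19.7 against 60.4 and 56.1 CPM. Scn11a, which marks the line among the VQ lines, was at 124.1 and 192.8 against 280.6 and 291.8 CPM. The opposite order was seen for Ccnd2, at 173.9 and 122.3 CPM in replicates 4 and 2, against 45.7 and 24.4 CPM in replicates 3 and 1. Ly6c2, a surface protein of monocytes and some plasma cells, was at 15.6 and 19.5 against 1.18 and 1.68 CPM. Eda2r was at 6.88 and 6.43 against 1.57 and 2.40 CPM. Of these genes, Ccnd2 also differed by site, being called higher in lymph node in the fit paired by recipient (log2 fold change 0.61). These are 2 mice carrying cells of 1 donor, so the values describe those mice.

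Genes were also grouped by chromosome after the data were seen, with positions from RefSeq for 12820 of the 12867 tested genes. The 618 tested genes of chromosome 3, which carries Nras, had a median log2 fold change of 0.56 over Control, 0.48 over VQ-D1 and 0.53 over VQ-D4, but of -0.0015 over VQ-D2. Of them, 136 (22.0%) stood apart as higher, against 7.64% of all genes. The other chromosomes had medians over Control between -0.26 and 0.13. The 779 genes of chromosome 5 had a median of 0.0062 over Control but of 0.90 over VQ-D1 and 1.03 over VQ-D4, and the 673 genes of chromosome 8 had 0.70 over VQ-D1. In the other direction, the 509 genes of chromosome 15, which carries Myc, had -0.60 over VQ-D4. These comparisons share the VQ-D5 libraries. DNA copy number was not analysed here.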
